A study of Mus musculus with 2 samples.

Results

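The expression of 10 genes was examined by cell type in quadriceps at 1 day and 3 days post-injury. They encode ligands of the transforming growth factor beta (TGF-β) superfamily, receptors and related proteins. The genes were chosen by symbol among the 32285 genes of the deposited tables: the ligands *Tgfb1*, *Tgfb2*, *Tgfb3*, *Inhba*, *Gdf3* and *Gdf15*, the antagonist *Fst*, the receptors *Tgfbr1* and *Tgfbr2*, and the induced matrix protein gene *Tgfbi*. Both groups were quadriceps mononuclear cells of wild-type male C57BL/6J mice aged 14 weeks, injured once by intramuscular injection of BaCl2, a salt that kills myofibers and causes sterile inflammation. The group at day 1 and the group at day 3 each consisted of 1 library of cells pooled from several mice and sorted by scatter to remove debris, dead cells and duplexes. With 1 library per day there were no replicates and nothing was tested. The range in parentheses after a level, share or ratio is its 95% confidence interval, which covers counting error only and not the spread between mice. Library and day cannot be told apart.

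TGF-β family ligands are secreted as dimers. TGF-β1, TGF-β2 and TGF-β3 are held latent in the matrix until released, and then bring together the type II receptor TGFBR2 and the type I receptor TGFBR1, which phosphorylates Smad2 and Smad3. Activins, dimers of the inhibin βA subunit encoded by *Inhba*, signal to the same Smads through other receptors and are trapped by follistatin, the product of *Fst*. In injured muscle, TGF-β is known for driving matrix production by fibro-adipogenic progenitors (FAPs) and for restraining myoblast differentiation, while macrophages are known as a source of GDF3 and GDF15.

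After filtering, 6735 cells of day 1 with a median of 9389 unique molecular identifiers (UMIs) and 4627 cells of day 3 with a median of 14548 UMIs remained. The libraries shared 0 barcodes. The mitochondrial limit removed 7.02% of the barcodes on day 1 and 30.3% on day 3. More barcodes were listed for day 3 than for day 1, though the labels give the same 10x chemistry for both. Any effect of either on the values cannot be told apart from the day. Clusters were named from marker genes, and a name ending in -like rests on these alone. Monocyte/macrophage-like cells made up 39.5% of day 1 (2662 cells) and 52.6% of day 3 (2432 cells), fibroblast/FAP-like cells 9.47% (638) and 17.7% (818), neutrophil-like cells 30.9% (2078) and 5.45% (252), and dendritic cell-like cells 5.91% (398) and 9.34% (432). Satellite/myoblast-like cells numbered 5 on day 1, too few for a level, and 200 on day 3. The 99 and 109 endothelial-like cells formed a mixed cluster led by *Hbb-bs*, in which the endothelial list summed to 2997 counts per 1000000 UMIs (CPM) on day 1, beside 2534 for the neutrophil and 2380.0 for the erythroid list. On day 3 it summed to 1188 CPM, below the 1826 CPM of the macrophage list and beside 1060.4 CPM of the T/NK and 1013 CPM of the FAP list. A cluster led by *Chil3* (642 and 22 cells) and another led by *Plac8* (213 and 362 cells) had no name.

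Different clusters held the 2 main types on the 2 days. On day 1 the monocyte/macrophage-like cells lay mostly in a cluster led by *Il1a*, *Serpinb2* and *Cxcl3* (1453 cells on day 1 and 7 on day 3) and a cluster led by *Cd163* (1131 and 17). On day 3 they lay in a cluster led by *Gpnmb* (12 and 1373) and a cluster led by the interferon-stimulated gene *Rsad2* (66 and 1035). Likewise, 628 of the 638 FAP-like cells of day 1 formed a cluster led by *Cxcl5* and *Prg4*, and 812 of the 818 of day 3 a cluster led by *Sfrp2* and *Col3a1*. The names of the *Il1a*-led and *Cxcl5*-led clusters rested on comparison with clusters of other types. Measured against all other cells, 2 of the 9 macrophage markers were raised in the *Il1a*-led cluster and 6 of the 8 FAP markers in the *Cxcl5*-led cluster, and by this measure neither cluster would have had a name. All 9 macrophage markers and all 8 FAP markers were detected in the type they mark on both days. The tenocyte list, led by *Thbs4*, summed to 979 CPM in FAP-like cells on day 1 and 367 CPM on day 3.

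The level of a gene is given as CPM, its UMIs summed over the cells of a type and scaled to 1000000 UMIs of these cells, and a log2 ratio compares the CPM of day 3 with that of day 1. A gene was taken as higher or lower when this ratio was past 2-fold and its interval excluded 0, among genes with at least 50 UMIs in both days together. Of the 10 genes, 9 reached this minimum in monocyte/macrophage-like cells, 4 being higher on day 3 and 2 lower, where 28.6% of all 11475 genes were higher and 5.46% lower. In FAP-like cells all 10 reached it, 3 being higher and 1 lower, where 23.4% of 12294 genes were higher and 7.08% lower. The median log2 ratio over all genes was 0.47 in monocyte/macrophage-like cells and 0.30 in FAP-like cells, against 0.86 and 0.42 over the members that reached the minimum. With 9 and 10 genes, these counts say nothing of the members as a group. In the endothelial-like cluster none of the 5 members that reached the minimum was past 2-fold, where 7.45% of 4186 genes were higher and 9.94% lower.

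**Figure D1:**
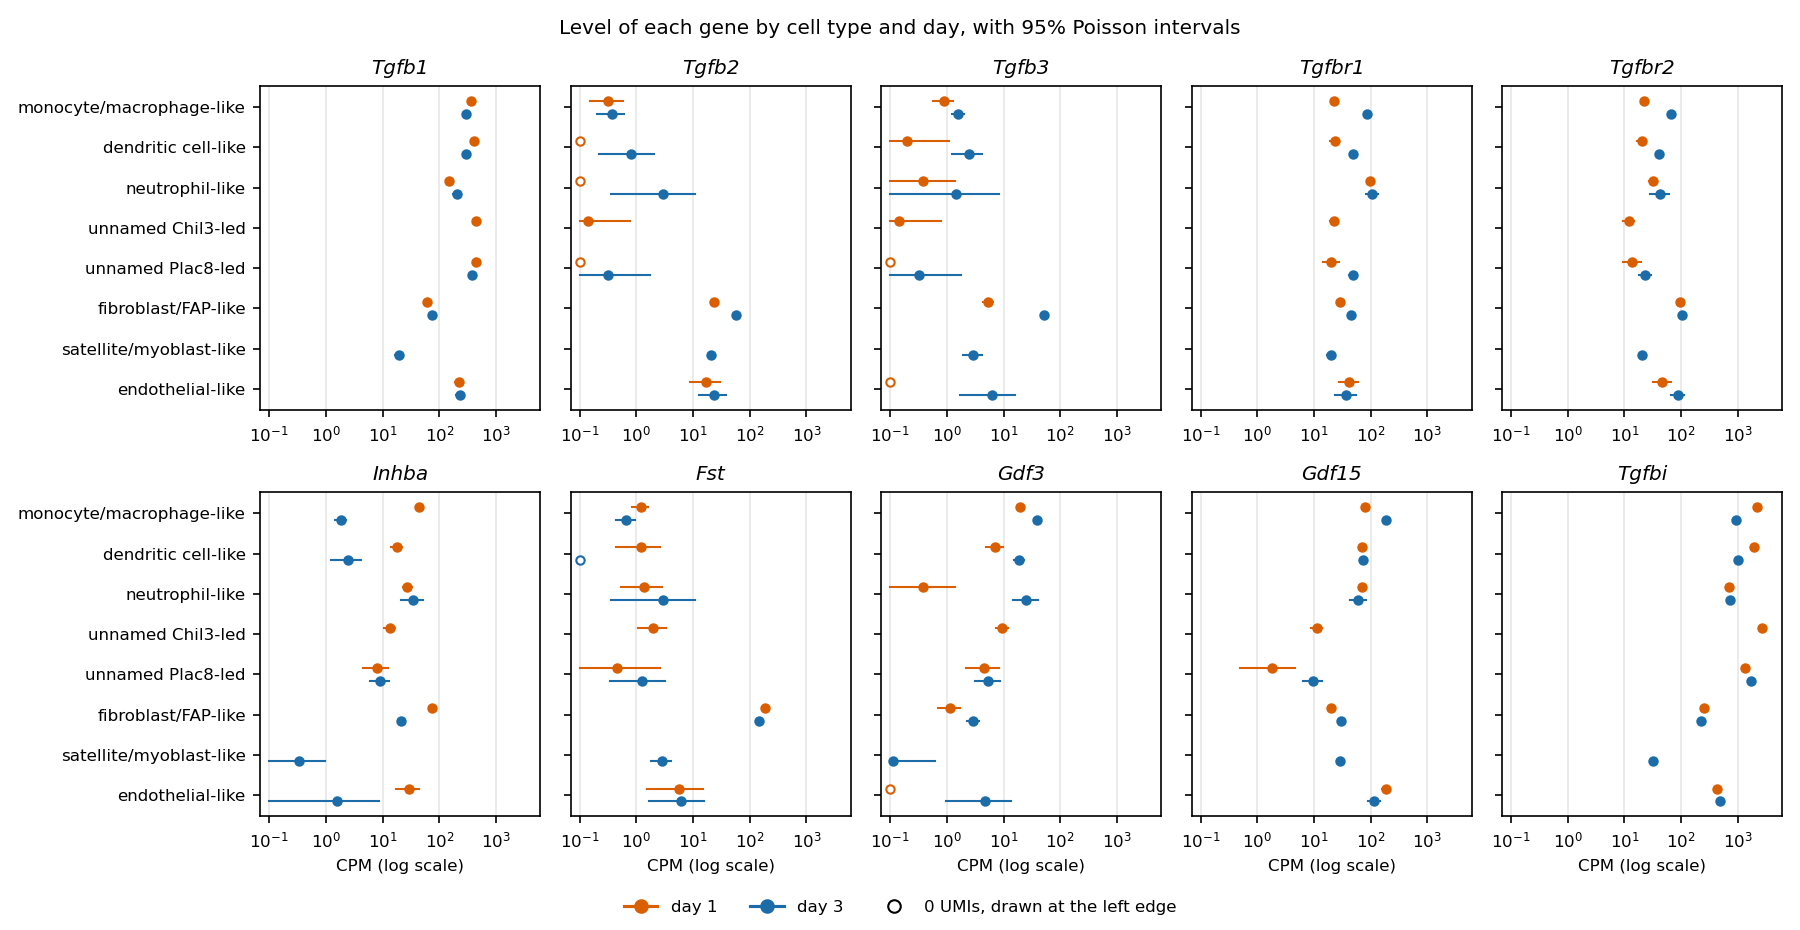
Level of each of the 10 genes (CPM, log axis) by cell type and day, with 95% Poisson intervals; open points at the left edge had 0 UMIs and types with fewer than 50 cells on a day are not drawn. *Tgfb1* and *Tgfbi* were measured in every type, whereas *Fst*, *Tgfb2* and *Tgfb3* were highest in FAP-like cells and *Gdf3* in monocyte/macrophage-like cells, though the endothelial-like interval overlapped that of FAP-like cells for *Tgfb2* and *Tgfb3* on day 1 and the neutrophil-like interval that of monocyte/macrophage-like cells for *Gdf3* on day 3.

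**Figure D2:**
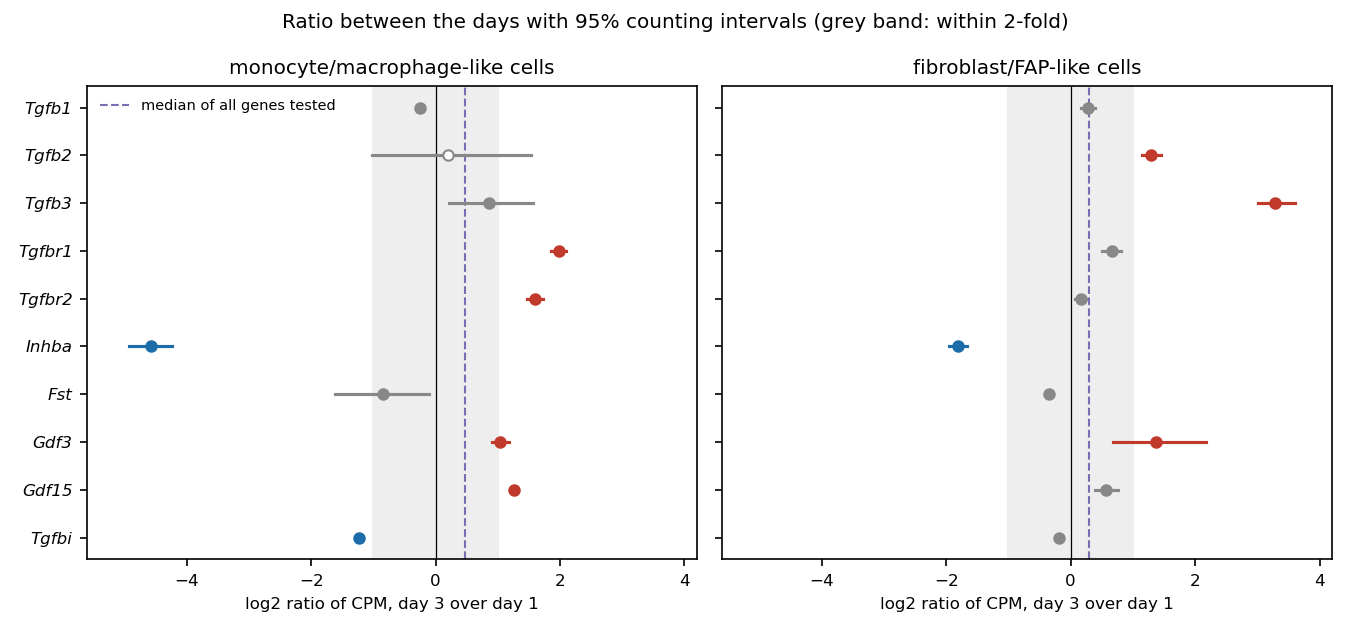
Log2 ratio of CPM, day 3 over day 1, in monocyte/macrophage-like (left) and FAP-like cells (right), with 95% counting intervals; the grey band marks changes within 2-fold, the dashed line the median of all genes tested, red and blue points genes higher and lower on day 3, grey points neither, and the open point a gene under 50 UMIs. *Inhba* lay to the left of the band in both types, and *Tgfb3* in FAP-like cells lay farthest to the right.

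The 3 TGF-β isoforms were not all highest in the same cell type, *Tgfb1* being highest in myeloid cells and *Tgfb2* and *Tgfb3* in FAP-like cells. The RefSeq promoter from 250 bases before to 50 after the transcription start is shown for 3 ligands. They are *Tgfb1* (gene at chr7:25687002-25705077, forward strand, GRCm38), *Tgfb2* (chr1:186622792-186705989, reverse strand) and *Inhba* (chr13:16011851-16031621, forward strand). These were picked by their expression from the 7 members with a promoter, and motif content was not compared with expression. Capitals mark matches, on either strand, to the TATA motif TATAAA, the GC box GGGCGG, the E-box CACGTG, the CCAAT box, the Smad-binding motif CAGACA and the AP-1 motif TGANTCA.
Tgfb1, chr7:25686752-25687051 of GRCm38, forward strand: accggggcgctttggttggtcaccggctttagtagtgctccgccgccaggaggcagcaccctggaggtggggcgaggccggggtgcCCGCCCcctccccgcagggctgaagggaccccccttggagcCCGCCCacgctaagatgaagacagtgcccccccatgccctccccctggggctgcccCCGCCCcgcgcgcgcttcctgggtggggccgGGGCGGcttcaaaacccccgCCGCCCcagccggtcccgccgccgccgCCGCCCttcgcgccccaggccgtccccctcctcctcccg
Tgfb2, chr1:186705940-186706239 of GRCm38, reverse strand: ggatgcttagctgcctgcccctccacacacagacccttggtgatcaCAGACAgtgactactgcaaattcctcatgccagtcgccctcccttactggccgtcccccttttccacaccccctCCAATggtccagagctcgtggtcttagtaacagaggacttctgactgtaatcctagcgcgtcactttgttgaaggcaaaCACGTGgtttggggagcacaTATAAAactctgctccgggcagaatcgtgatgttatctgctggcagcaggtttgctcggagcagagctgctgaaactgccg
Inhba, chr13:16011601-16011900 of GRCm38, forward strand: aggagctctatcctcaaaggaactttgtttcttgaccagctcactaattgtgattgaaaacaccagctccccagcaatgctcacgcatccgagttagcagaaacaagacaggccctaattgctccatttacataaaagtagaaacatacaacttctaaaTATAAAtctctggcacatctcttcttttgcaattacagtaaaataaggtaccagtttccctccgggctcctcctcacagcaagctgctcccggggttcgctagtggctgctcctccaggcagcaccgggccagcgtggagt
The *Tgfb1* window was 77.0% G and C and held 6 GC boxes, which 35.7% of all 32851 promoters of this length contain at least once, and no TATAAA. The *Tgfb2* and *Inhba* windows were 54.3% and 47.7% G and C and each held 1 TATAAA, found in 13.6% of all promoters. The *Tgfb2* window also held 1 match each to the E-box, the CCAAT box and the Smad-binding motif, present in 7.15%, 37.4% and 21.04% of promoters, and the AP-1 motif, present in 7.81%, was in none of the 3 windows. A match is a string of letters and says nothing about binding.

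*Tgfb1* was the most widely expressed of the 3 isoforms. In monocyte/macrophage-like cells its level was 355 CPM (348 to 362) on day 1 and 297 CPM (292 to 302) on day 3, a log2 ratio of -0.26 (-0.30 to -0.22), within 2-fold. In dendritic cell-like cells it was 405 CPM (388 to 423) and 292 CPM (277 to 307), and in neutrophil-like cells 148 CPM (138 to 159) and 206 CPM (174 to 243). The clusters without a name were at or above these levels. The *Chil3*-led cells of day 1 held 442 CPM (427 to 458), and the *Plac8*-led cells 442 and 376 CPM on days 1 and 3. FAP-like cells were lower, with 61.4 CPM (57.9 to 65.04) and 74.5 CPM (71.1 to 78.01), and the satellite/myoblast-like cells of day 3 lowest, with 19.3 CPM (16.6 to 22.4). The mixed endothelial-like cluster held 221 CPM (188 to 259) on day 1 and 230 CPM (194 to 270) on day 3. These levels were above neutrophil-like cells on day 1 and overlapped their interval on day 3. The intervals of the *Chil3*-led and *Plac8*-led cells overlapped on day 1, and on day 3 those of monocyte/macrophage-like and dendritic cell-like cells overlapped. Up to 37.01% of the *Tgfb1* UMIs of FAP-like cells on day 1, and up to 12.1% on day 3, could be free RNA by the level of other types' markers in these cells.

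Within the monocyte/macrophage-like cells *Tgfb1* was highest in 1 cluster of day 1. It was 397 CPM (387 to 406) in the *Il1a*-led cluster and 307 CPM (298 to 316) in the *Cd163*-led cluster on day 1, and 297 and 298 CPM in the *Gpnmb*-led and *Rsad2*-led clusters on day 3. *Tgfb1* UMIs were found in 93.01% (91.98 to 93.95) of monocyte/macrophage-like cells on day 1 and 95.5% (94.6 to 96.3) on day 3. With each cell thinned to 3000 UMIs, these shares were 63.1% and 57.6%. Monocyte/macrophage-like cells held 58.01% of all *Tgfb1* UMIs in the cells of day 1 and 70.99% on day 3. These shares leave out the clusters without a name, *Chil3*-led (642 cells on day 1 and 22 on day 3) and *Plac8*-led (213 and 362). All 9 macrophage markers were detected in the *Chil3*-led cells of day 1 and the *Plac8*-led cells of both days. The difference in share between the days thus depends on the naming of clusters.

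*Tgfb2*, whose product depends on the co-receptor betaglycan for tight receptor binding, had its highest levels in FAP-like, satellite/myoblast-like and the mixed endothelial-like cells. In FAP-like cells it was 23.04 CPM (20.9 to 25.3) on day 1 and 56.6 CPM (53.7 to 59.7) on day 3, a log2 ratio of 1.30 (1.14 to 1.46). The satellite/myoblast-like cells of day 3 held 20.9 CPM (18.01 to 24.1), with UMIs in 49.5% of the cells. The endothelial-like cluster held 17.2 CPM (8.91 to 30.1) on day 1, from 12 UMIs in 2 cells, and 23.1 CPM (12.9 to 38.1) on day 3, from 15 UMIs in 8 cells. These intervals overlapped that of FAP-like cells on day 1 and that of satellite/myoblast-like cells on day 3. Monocyte/macrophage-like cells had 10 *Tgfb2* UMIs in all on day 1 and 15 on day 3, or 0.313 and 0.365 CPM, of which up to 34.8% and 54.8% could be free RNA. FAP-like cells held 94.96% of the *Tgfb2* UMIs on day 1 and 86.1% on day 3, when satellite/myoblast-like cells held 11.6%.

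*Tgfb3* had the highest ratio between the days of the 10 genes in FAP-like cells. Its level there was 5.32 CPM (4.33 to 6.47) on day 1, from 100 UMIs, and 52.3 CPM (49.5 to 55.3) on day 3, from 1279 UMIs, a log2 ratio of 3.29 (3.00 to 3.61). UMIs were found in 13.3% (10.8 to 16.2) of FAP-like cells on day 1 and 57.1% (53.6 to 60.5) on day 3, and in 1.86% and 14.1% after thinning. Monocyte/macrophage-like cells, at median depths of 11472 and 15258 UMIs against 28102 and 26337 in FAP-like cells, had a *Tgfb3* UMI in 0.714% and 2.38% of cells. The *Tgfb3* difference in FAP-like cells lay between the *Cxcl5*-led cluster of day 1 (5.04 CPM) and the *Sfrp2*-led cluster of day 3 (52.5 CPM), and whether cells of a like state differed between the days was not tested.

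**Figure D3:**
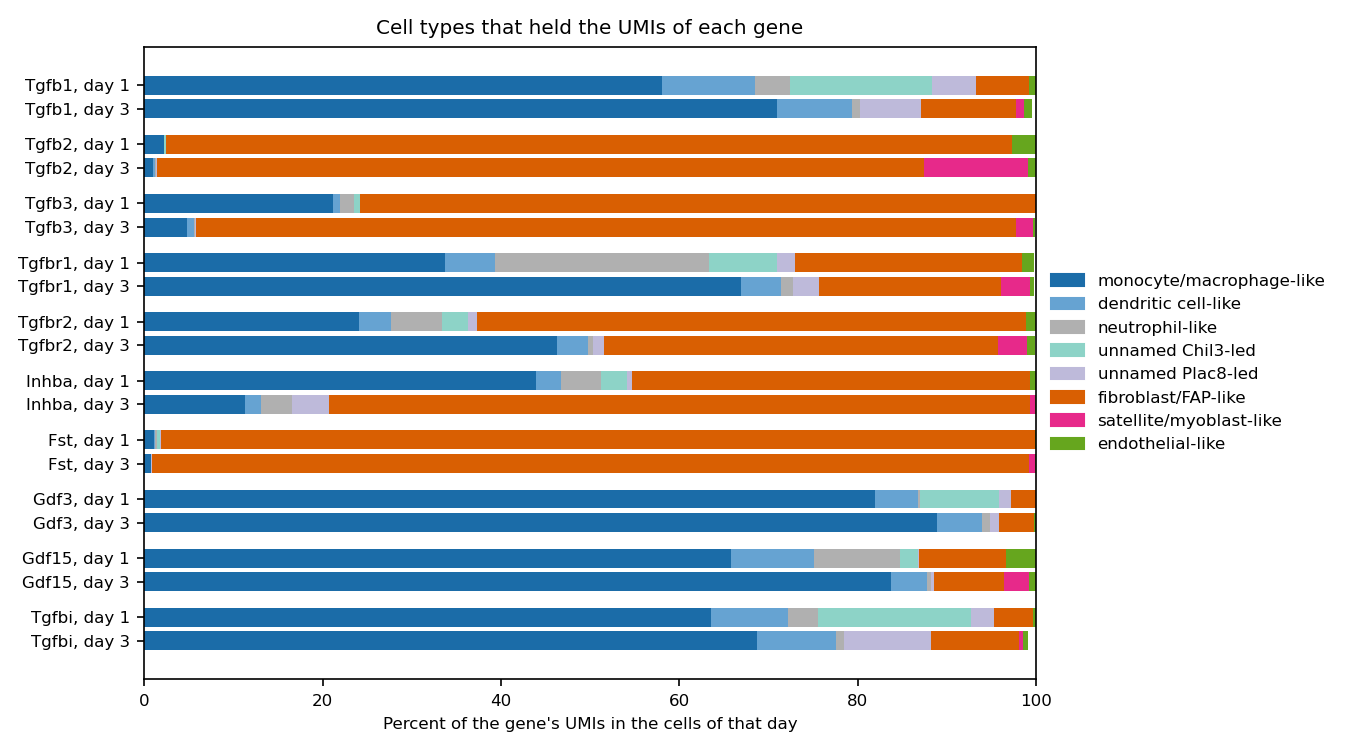
Share of the UMIs of each gene, among all cells of that day, held by each cell type (percent; bars end short of 100 where types with fewer than 50 cells held the rest). FAP-like cells held 98.1% and 98.3% of *Fst*, and monocyte/macrophage-like cells held 82.0% and 88.9% of *Gdf3* on days 1 and 3.

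*Inhba*, the activin A subunit, was lower on day 3 in both main types. In FAP-like cells its level was 75.4 CPM (71.5 to 79.4) on day 1 and 21.4 CPM (19.6 to 23.3) on day 3, a log2 ratio of -1.81 (-1.96 to -1.67). In monocyte/macrophage-like cells it was 43.6 CPM (41.4 to 45.97) and 1.82 CPM (1.43 to 2.29), a log2 ratio of -4.57 (-4.93 to -4.24). In dendritic cell-like cells it was 17.6 CPM (14.1 to 21.6) and 2.41 CPM (1.25 to 4.22), a log2 ratio of -2.81 (-3.87 to -1.99), from 89 and 12 UMIs. These cells carried more macrophage than dendritic cell markers, the 9 macrophage markers summing to 3285 CPM on day 1 and 4507 CPM on day 3 and the 9 dendritic cell markers to 574 and 427 CPM, all of them detected on both days. The part of the macrophage markers in the ratios of this type was not tested. Among these cells, 3 of the 7 members that reached 50 UMIs were higher on day 3 and 1, *Inhba*, lower, where 15.5% and 3.71% of 8475 genes were. The intervals of neutrophil-like cells, 27.4 (23.1 to 32.4) and 33.9 (21.5 to 50.9) CPM, overlapped between the days.

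The *Inhba* of monocyte/macrophage-like cells lay mostly in 1 cluster. The *Il1a*-led cluster held 75.4 CPM (71.4 to 79.7) on day 1, an interval that overlapped the 75.99 CPM (72.1 to 80.05) of the *Cxcl5*-led FAP-like cluster, whereas the *Cd163*-led cluster of the same library held 6.67 CPM (5.39 to 8.16). The *Gpnmb*-led and *Rsad2*-led clusters of day 3 held 1.06 and 3.47 CPM. Without the *Il1a*-led cluster the log2 ratio in monocyte/macrophage-like cells was -1.87. Within the type few cells carried the transcript: an *Inhba* UMI was found in 8.56% (7.53 to 9.69) of monocyte/macrophage-like cells on day 1, and 1 cell held 127 of the 1395 UMIs. On day 3 the share was 1.97% (1.46 to 2.61), beside 3 of the 200 satellite/myoblast-like cells with 1 *Inhba* UMI each, at a median depth of 44172 UMIs. In FAP-like cells the shares were 33.7% and 18.8% (11.7% and 4.31% after thinning). FAP-like cells thus held 44.6% of *Inhba* UMIs on day 1 and 78.7% on day 3, and monocyte/macrophage-like cells 43.95% and 11.3%.

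*Fst*, whose product binds activins and keeps them from their receptors, was found mostly in FAP-like cells. Its level there was 188 CPM (182 to 194) on day 1 and 148 CPM (143 to 153) on day 3, a log2 ratio of -0.35 (-0.42 to -0.28), within 2-fold. *Fst* UMIs were found in 76.2% (72.7 to 79.4) and 79.1% (76.1 to 81.8) of FAP-like cells, but in 0.789% and 0.946% of monocyte/macrophage-like cells, where up to 71.6% and 68.6% of the UMIs could be free RNA. The satellite/myoblast-like cells of day 3 held 2.79 CPM (1.81 to 4.12). In FAP-like cells *Fst* thus differed by less than 2-fold between the days, where *Inhba* was lower by more.

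*Gdf15*, a divergent family member induced by cellular stress, was highest in monocyte/macrophage-like cells on day 3 and in the mixed endothelial-like cluster on day 1. Its level in monocyte/macrophage-like cells was 79.1 CPM (76.02 to 82.2) on day 1 and 189 CPM (185 to 193) on day 3, a log2 ratio of 1.26 (1.19 to 1.32). The share of cells with a UMI was 13.3% (12.03 to 14.6) on day 1 and 45.5% (43.5 to 47.5) on day 3, or 7.51% and 24.4% after thinning. On day 1 the 10% of cells with the most *Gdf15* held 96.6% of its UMIs and on day 3 63.4%, so the transcript was spread over more cells on day 3.

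Clusters of the same day also differed. On day 1 *Gdf15* was 26.95 CPM (24.6 to 29.5) in the *Il1a*-led cluster and 132 CPM (126 to 138) in the *Cd163*-led cluster, the reverse of the order for *Inhba*. On day 3 it was 237 CPM (232 to 243) in the *Gpnmb*-led cluster, with UMIs in 59.7% of the cells, and 89.7 CPM (84.7 to 94.99) in the *Rsad2*-led cluster, which is below the *Cd163*-led cluster of day 1. In the *Rsad2*-led cluster, the only one of these with 50 or more cells on both days, *Gdf15* was 173 CPM (140.1 to 211) in 66 cells of day 1. Within that cluster the level of *Gdf15* was thus lower on day 3, opposite to the type as a whole. The intervals did not overlap, but they treat UMIs as independent. Over the type on day 1, 10% of cells held 96.6% of the *Gdf15* UMIs, so a few of the 66 cells could set this level. Without the *Il1a*-led cluster the log2 ratio of the type was 0.44, within 2-fold. Dendritic cell-like cells held 70.1 and 74.6 CPM, FAP-like cells 19.9 and 29.6, and the satellite/myoblast-like cells of day 3 29.2. In neutrophil-like cells the 71.5 CPM of day 1 came from 34 of 2078 cells.

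*Gdf3*, a ligand of the nodal branch, was found in a small part of the monocyte/macrophage-like cells. Its level there was 19.2 CPM (17.7 to 20.8) on day 1 and 39.4 CPM (37.5 to 41.4) on day 3, a log2 ratio of 1.04 (0.90 to 1.17), just past 2-fold, and 0.78 without the *Il1a*-led cluster. UMIs were found in 5.71% (4.86 to 6.66) and 10.6% (9.45 to 11.9) of cells, against 1 of the 200 satellite/myoblast-like cells. By cluster, *Gdf3* was 48.99 CPM (46.4 to 51.7) in the *Gpnmb*-led cluster of day 3, and 20.6 CPM in the *Rsad2*-led, 23.6 CPM in the *Cd163*-led and 15.9 CPM in the *Il1a*-led cluster. In dendritic cell-like cells it was 7.11 and 18.7 CPM, a log2 ratio of 1.38 (0.83 to 1.99), beside the macrophage markers given for these cells above, whose part was not tested. FAP-like cells had 21 and 72 UMIs, a log2 ratio of 1.37 (0.68 to 2.17), of which up to 48.1% and 31.1% could be free RNA. Beside it, the summed macrophage markers in FAP-like cells were at 354 CPM on day 1 and 1177 CPM on day 3, with all 9 markers detected, and their part in the result was not tested.

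**Figure D4:**
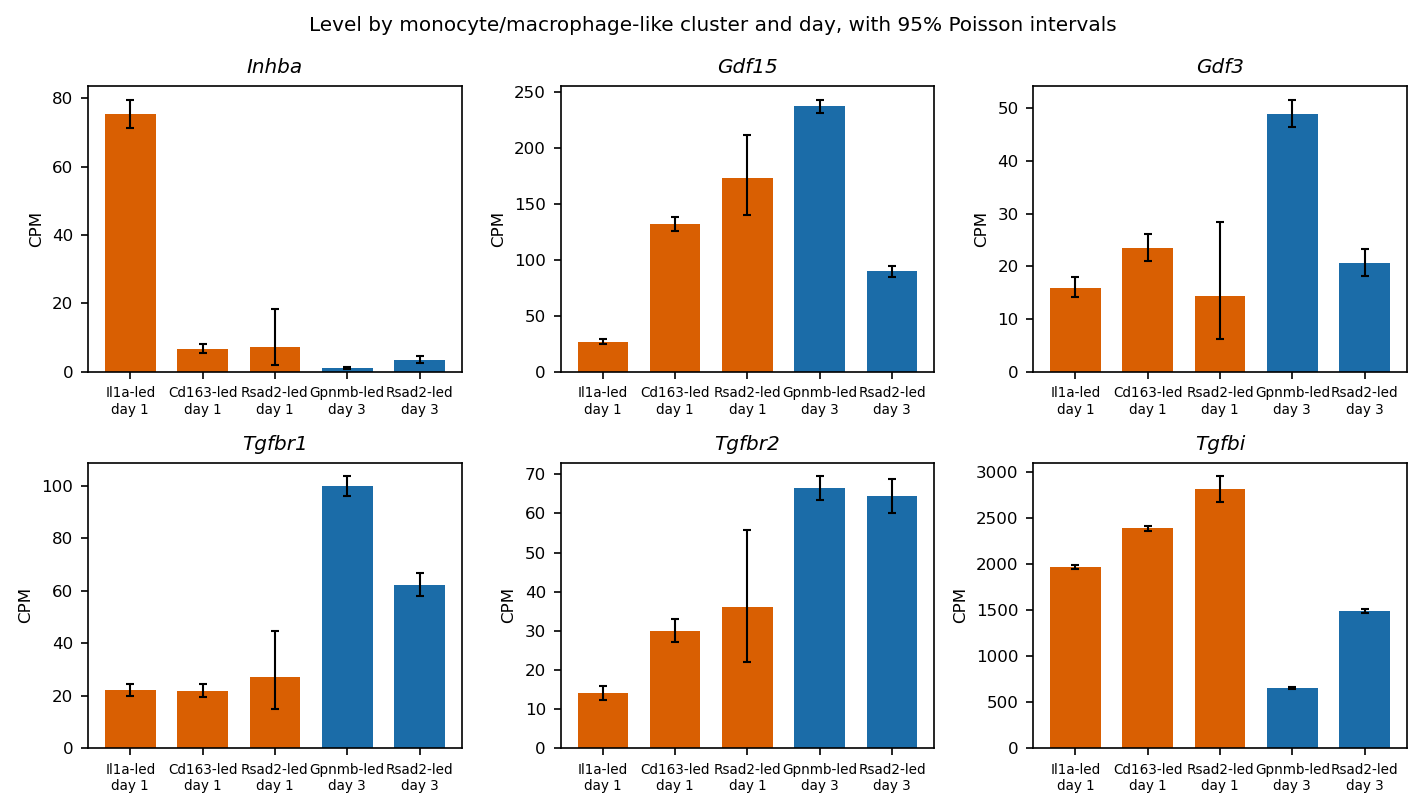
Level (CPM) of 6 genes in the monocyte/macrophage-like clusters with at least 50 cells on a day, named by their leading gene, with 95% Poisson intervals; orange bars are day 1 and blue bars day 3. *Inhba* was at 75.4 CPM in the *Il1a*-led cluster and at 7.21 CPM or below in the others, and both receptor genes were higher in the day 3 clusters than in the *Il1a*-led and *Cd163*-led clusters. The *Rsad2*-led cells of day 1 are drawn but were not part of this receptor comparison.

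Both TGF-β receptor genes were higher on day 3 in monocyte/macrophage-like cells. *Tgfbr1*, encoding the type I receptor kinase (chr4:47353222-47414931, forward strand), was 22.2 CPM (20.6 to 23.9) on day 1 and 87.4 CPM (84.5 to 90.3) on day 3, a log2 ratio of 1.98 (1.86 to 2.09). *Tgfbr2*, encoding the ligand-binding type II receptor (chr9:116084293-116175360, reverse strand), was 21.7 CPM (20.1 to 23.4) and 65.6 CPM (63.1 to 68.1), a log2 ratio of 1.60 (1.48 to 1.72). The shares of cells with a UMI were 21.9% and 59.5% for *Tgfbr1* and 20.1% and 58.9% for *Tgfbr2*, and after thinning 6.72% and 20.8%, and 5.96% and 17.7%.

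The receptors also differed between clusters. *Tgfbr1* was 22.2 and 21.99 CPM in the *Il1a*-led and *Cd163*-led clusters of day 1, whose intervals overlapped, and 99.9 CPM (96.2 to 104) in the *Gpnmb*-led against 62.3 CPM (58.1 to 66.7) in the *Rsad2*-led cluster of day 3. *Tgfbr2* was 14.1 CPM (12.4 to 16.04) in the *Il1a*-led and 30.01 CPM (27.2 to 33.01) in the *Cd163*-led cluster, and 66.4 and 64.4 CPM in the clusters of day 3, whose intervals overlapped. The 66 *Rsad2*-led cells of day 1 were left out of this comparison, so it sets different clusters of day 1 and day 3 side by side.

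In FAP-like cells the receptor genes stayed within 2-fold. *Tgfbr2* was 94.2 CPM (89.8 to 98.7) and 106 CPM (102 to 109.7), higher than in any other type on both days except that the interval of the endothelial-like cells of day 3, 87.9 (66.5 to 114) CPM, overlapped it. *Tgfbr1* was 28.4 CPM (26.05 to 30.9) and 44.8 CPM (42.2 to 47.6), a log2 ratio of 0.66 (0.51 to 0.81). Neutrophil-like cells had the highest *Tgfbr1* level of day 1, 97.4 CPM (89.1 to 106), beside 31.9 CPM of *Tgfbr2*, and on day 3 106 CPM (83.02 to 134). Their interval on day 3 overlapped that of monocyte/macrophage-like cells. In dendritic cell-like cells both were higher on day 3 beside the macrophage markers given for these cells above, whose part was not tested, *Tgfbr1* with a log2 ratio of 1.08 (0.76 to 1.41) and *Tgfbr2* with 1.04 (0.69 to 1.40). The satellite/myoblast-like cells of day 3 held 19.8 CPM of *Tgfbr1* and 20.8 CPM of *Tgfbr2*. In neutrophil-like cells 6 members reached 50 UMIs and none was past 2-fold, where 31.9% of 5711 genes were higher and 7.37% lower. The neutrophil-like cells of day 3 held 2359 CPM of macrophage and 906 CPM of FAP markers, against 306 and 22.4 CPM on day 1, and the part of these in their levels was not tested.

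*Tgfbi*, a secreted matrix protein named for its induction by TGF-β, was lower on day 3 in monocyte/macrophage-like cells. Its level there was 2175 CPM (2158 to 2191) on day 1 and 928 CPM (918 to 937) on day 3, a log2 ratio of -1.23 (-1.25 to -1.21), while UMIs were found in 97.6% and 95.4% of cells. On day 1 it was 1970.4 CPM in the *Il1a*-led and 2392 CPM in the *Cd163*-led cluster. On day 3 it was 656 CPM (647 to 666) in the *Gpnmb*-led and 1490.2 CPM (1469 to 1511) in the *Rsad2*-led cluster. The *Rsad2*-led cells of day 1 held 2815 CPM (2677 to 2958). Of the clusters without a name, the *Chil3*-led cells held 2662 CPM (2625 to 2701) on day 1, above the monocyte/macrophage-like cells as a whole. The *Plac8*-led cells held 1321 and 1719 CPM on days 1 and 3, below monocyte/macrophage-like and dendritic cell-like cells on day 1 and above them on day 3. Dendritic cell-like cells held 1891 and 994 CPM, a log2 ratio of -0.93 (-0.98 to -0.88). In FAP-like cells *Tgfbi* was 257 CPM (249 to 264) and 224 CPM (218 to 230.3), of which up to 32.6% on day 1 and 10.2% on day 3 could be free RNA, and its ratio there changed sign, from -0.19 to 0.27, without the cells of highest doublet score.

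The other genes of the pathway were counted in lists, and each pair of levels is that of day 1 and day 3. The lists were chosen with earlier results of these data known, so these counts are descriptions. Among the 20 genes known to respond to TGF-β, 10 were higher and 2 lower on day 3 in FAP-like cells, where 23.4% and 7.08% of all genes were, with a median log2 ratio of 0.93 against 0.30 over all genes. *Col1a1*, *Col1a2*, *Col5a1* and *Postn* of this list were also among the leading genes of the *Sfrp2*-led cluster. A response to TGF-β was not tested. *Acta2*, smooth muscle actin and a mark of myofibroblasts, was at 3.46 and 200.3 CPM (log2 ratio 5.84, 5.50 to 6.23). *Col1a2*, a chain of type I collagen and the highest of the list on day 3, was at 546 and 6161 CPM (log2 ratio 3.50, 3.47 to 3.53). *Timp1*, an inhibitor of matrix metalloproteinases and the highest on day 1, was at 1958 and 836 CPM (log2 ratio -1.23, -1.25 to -1.20). Of the 19 with enough UMIs in monocyte/macrophage-like cells, 6 were higher and 6 lower, where 28.6% and 5.46% of all genes were, with a median of -0.19 against 0.47. *Timp1* was at 239 and 25.5 CPM (log2 ratio -3.22, -3.32 to -3.13), *Fn1*, encoding fibronectin, 3009 and 397 CPM (log2 ratio -2.92, -2.95 to -2.90), and *Junb*, an AP-1 subunit, 2005 and 832 CPM (log2 ratio -1.27, -1.29 to -1.25). *Col5a1* had the highest ratio of the list in these cells, at 0.156 and 2.38 CPM. Beside it, the summed FAP markers in monocyte/macrophage-like cells were 26.5 and 52.8 CPM, and 1113 and 3936 CPM in barcodes of at most 100 UMIs. Their part in the ratios of matrix genes was not tested.

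Of the 22 genes of latency and activation, which hold TGF-β in the matrix or release it, 9 were higher and 2 lower of 21 tested in FAP-like cells (median 0.88, all genes 0.30, 23.4% and 7.08% of them higher and lower). *Emilin1*, whose product restrains TGF-β processing, was at 26.2 and 129 CPM (log2 ratio 2.30, 2.17 to 2.44). *Fbn1*, the microfibril protein fibrillin-1, was at 303 and 1122 CPM (log2 ratio 1.89, 1.85 to 1.93), and *Ltbp4*, a latent TGF-β binding protein, 113 and 23.4 CPM (log2 ratio -2.27, -2.41 to -2.14). *Thbs1*, thrombospondin-1, which can activate latent TGF-β, had the highest level of the list on day 1 in both types. *Thbs1* was at 4772 and 512 CPM (log2 ratio -3.22, -3.24 to -3.20) in monocyte/macrophage-like cells and 578 and 373 CPM (log2 ratio -0.63, -0.67 to -0.59), within 2-fold, in FAP-like cells. In the former, 4 of 14 genes were higher and 2 lower (median 0.86, all genes 0.47, 28.6% and 5.46% of them higher and lower), a share of higher genes equal to that of all genes, *Itgb3* having the highest ratio at 0.156 and 1.36 CPM.

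Among the 14 other extracellular antagonists, 3 were higher and 3 lower of 11 tested in FAP-like cells (median -0.08, all genes 0.30, 23.4% and 7.08% of them higher and lower). *Bmper*, a modulator of bone morphogenetic proteins (BMPs), was at 21.97 and 114 CPM (log2 ratio 2.37, 2.22 to 2.53), the proteoglycan *Bgn*, the highest of the list, 938 and 2963 CPM (log2 ratio 1.66, 1.64 to 1.68), and *Nog*, encoding noggin, 1.92 and 0.613 CPM (log2 ratio -1.62, -2.62 to -0.74). Of the 5 tested in monocyte/macrophage-like cells 4 were higher (median 1.95, all genes 0.47, 28.6% and 5.46% of them higher and lower), the protease gene *Htra3* at 0.5003 and 7.78 CPM (log2 ratio 3.92, 3.24 to 4.78) and *Bgn* 2.69 and 14.3 CPM (log2 ratio 2.40, 2.08 to 2.75), beside the FAP markers given above. Of the 26 other ligands, 2 in monocyte/macrophage-like cells (median -0.33) and 7 in FAP-like cells (median -0.83) reached 50 UMIs. *Bmp2* was lower in both types, at 1.72 and 0.851 CPM (log2 ratio -1.01, -1.67 to -0.38) in monocyte/macrophage-like and 27.03 and 12.2 CPM (log2 ratio -1.15, -1.36 to -0.94) in FAP-like cells. In FAP-like cells *Bmp5* was at 4.15 and 28.7 CPM (log2 ratio 2.78, 2.45 to 3.15), *Gdf10* 16.4 and 33.3 CPM (log2 ratio 1.02, 0.83 to 1.22) and *Bmp6* 12.7 and 2.86 CPM (log2 ratio -2.14, -2.55 to -1.75), 2 of the 7 being higher and 3 lower, where 23.4% and 7.08% of all genes were. *Lefty1*, the highest of these ligands in monocyte/macrophage-like cells, was at 1.81 and 2.31 CPM there.

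Among the 13 other receptors and co-receptors, 2 were higher and 1 lower of 11 tested in FAP-like cells (median 0.27, all genes 0.30, 23.4% and 7.08% of them higher and lower). *Acvr2a*, a type II receptor for activins, was at 11.6 and 59.5 CPM (log2 ratio 2.36, 2.15 to 2.57) and *Acvr2b*, its close relative, 2.02 and 0.654 CPM (log2 ratio -1.60, -2.57 to -0.75). *Tgfbr3*, betaglycan, which presents TGF-β2 to TGFBR2, was the highest of the list in FAP-like cells and was at 96.7 and 116 CPM (log2 ratio 0.27, 0.18 to 0.35), within 2-fold. Of 8 tested in monocyte/macrophage-like cells 1 was higher (median 0.35, all genes 0.47, 28.6% and 5.46% of them higher and lower), the co-receptor *Eng*, which was at 5.97 and 16.4 CPM (log2 ratio 1.45, 1.22 to 1.69), while the pseudoreceptor *Bambi* was at 38.6 and 26.8 CPM (log2 ratio -0.53, -0.65 to -0.41) and *Bmpr2* 16.8 and 33.3 CPM (log2 ratio 0.99, 0.84 to 1.14), both within 2-fold.

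Of the 18 Smads and their regulators, 17 were tested in each type. In monocyte/macrophage-like cells 4 were higher and 2 lower (median 0.44, all genes 0.47, 28.6% and 5.46% of them higher and lower). *Pmepa1*, a TGF-β-induced inhibitor of Smad signaling, was at 20.3 and 105 CPM (log2 ratio 2.37, 2.25 to 2.49). *Smad3*, a Smad activated by TGFBR1, was at 20.7 and 6.59 CPM (log2 ratio -1.65, -1.86 to -1.44), and the corepressor *Tgif1* 240.3 and 92.5 CPM (log2 ratio -1.38, -1.43 to -1.32). In FAP-like cells 2 were higher and none lower (median 0.23, all genes 0.30, 23.4% and 7.08% of them higher and lower). *Zfyve16*, encoding a Smad-binding endosomal protein, was at 9.04 and 27.9 CPM (log2 ratio 1.62, 1.38 to 1.88), and *Pmepa1*, the highest of the list there, 394 and 252 CPM (log2 ratio -0.64, -0.69 to -0.59), within 2-fold.

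**Figure D5:**
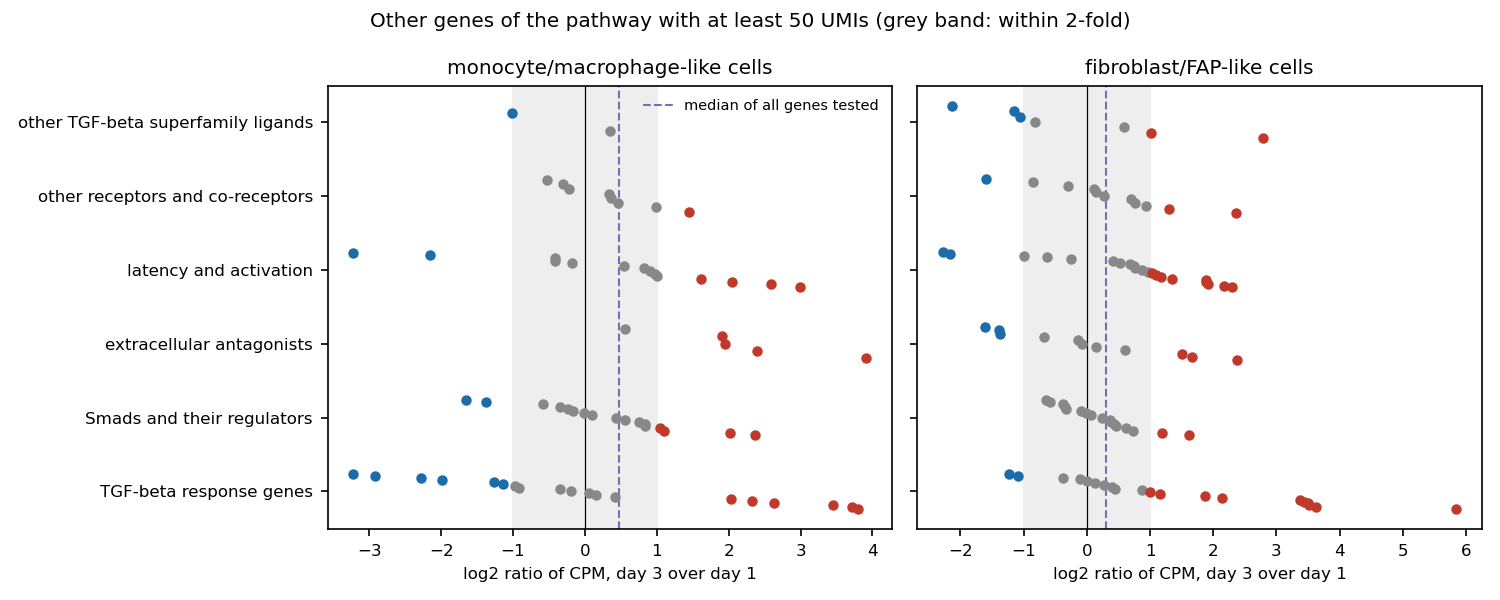
Log2 ratio of CPM, day 3 over day 1, of the other pathway genes with at least 50 UMIs, by list, in monocyte/macrophage-like (left) and FAP-like cells (right); each point is a gene, red higher and blue lower on day 3, grey within 2-fold or with an interval that includes 0, and the dashed line marks the median of all genes tested. In FAP-like cells 10 of 20 response genes lay to the right of the band, and in monocyte/macrophage-like cells 6 of 19 lay on either side.

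The genes with the most alike pattern to each member were found by the Pearson correlation of log2(CPM + 1) over the 11 groups of named type and day, among 8907 genes with at least 1000 UMIs. These points share 2 libraries, so the values are descriptions. For *Tgfb1* they were *Zmiz1* (r = 0.98) and *Stx7* (r = 0.97), and for *Tgfbi* *Rnf130* (r = 0.98) and *Gsdmd* (r = 0.98). For the genes of FAP-like cells they were *Samd4* (r = 0.99) and *Mpdz* (r = 0.99) for *Tgfb2*, *Mmp23* (r = 0.95) and *Tcea3* (r = 0.94) for *Tgfb3* and *Entpd2* (r = 0.98) and *Lrrn4cl* (r = 0.97) for *Fst*. *Gdf3* was most alike to *Atp6v1c1* (r = 0.97) and *Daglb* (r = 0.96) and *Gdf15* to *Cd200r4* (r = 0.91) and *Ubald1* (r = 0.90). For the receptors they were *Mvb12b* (r = 0.91) and *1810058I24Rik* (r = 0.91) for *Tgfbr1* and *Ctsk* (r = 0.93) and *Cped1* (r = 0.93) for *Tgfbr2*, and for *Inhba* *Ost4* (r = 0.94) and *Sra1* (r = 0.90).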

How the data were processed

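Quadriceps mononuclear cells were measured by 10x Genomics 3-prime single-cell RNA sequencing in 1 library at day 1 and 1 at day 3 post-injury. For every listed barcode the authors deposited raw counts of UMIs by gene, neither normalized nor reduced to called cells. The submitters' processing notes name Cell Ranger 5.0.0 and mm10, and the file headers Cell Ranger 4. The day 1 and day 3 tables summed to 74852240 and 102565783 UMIs, and counting error limits genes with few UMIs in the smaller cell types.

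The barcodes with the most UMIs, as many as the cells of each library in the study, were taken when they had at least 1000 UMIs, at least 200 genes and at most 7.5% mitochondrial UMIs. Scrublet (scanpy 1.11.5) marked 2 cells of day 1 and 0 of day 3, too few to have worked, and doublets were kept. An alternative removed the 363 and 171 cells of highest score. Both days were clustered jointly in R 4.3.3 (Seurat 5.3.0, SCTransform from sctransform 0.4.2) with cell cycle and mitochondrial share regressed out, on 3000 variable features without the markers and the 10 genes, 10 PCs and a resolution of 0.8. A cluster took the name of its best-scoring marker list when at least 3 markers were raised against clusters with another best list and its 10 leading genes did not hold more markers of a different list. This scoring was set after the clusters were seen. CPM carry exact Poisson intervals, shares Clopper-Pearson intervals, and log2 ratios (0.5 added to each count) the exact binomial interval, and all cover counting error only. Free RNA was read from barcodes of at most 100 UMIs, its share taken from the lowest relative level of another type's markers. The erythroid and platelet lists, and lists at a low level in these barcodes, were not used for this. In FAP-like cells the erythroid markers lay relatively lower than the list used on both days, so the shares given as upper values there are loose. Named were the 10 genes, the 2 genes most alike to each, and of each pathway list the genes called with the highest and lowest ratio and the highest level in each main type. The genes, lists and rules were chosen with earlier results of these data known. Promoters of 7 of the 10 genes were found in the RefSeq table (GRCm38.p6), and gene positions are from GENCODE M21. Protein sequences were not analysed here. Genes overlap *Tgfb2*, *Tgfb3*, *Inhba* and *Fst* on the other strand, and the strand setting of the counting is not given in the sources used here. Values were computed with pandas 2.3.3, scipy 1.17.1 and numpy 2.4.6 in Python 3.11.15.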

Additional observations from a re-analysis of the deposited data

How the results depend on the processing

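No paired analysis was possible because each day has 1 library, and for the same reason no replicate could be left out. The members were counted again under 13 other settings and 2 chosen after seeing the data. The latter left out the *Il1a*-led cluster or counted the *Chil3*-led and *Plac8*-led clusters as monocyte/macrophage-like. A setting among the 13 changed the threshold of 2-fold, and its count is of members past its own threshold. With it included, the number of members past the threshold ranged from 4 to 8 in monocyte/macrophage-like cells (6 in the report). Under the 13 it ranged from 3 to 5 in FAP-like cells (4 in the report). With the threshold kept at 2-fold, *Tgfbr1*, *Tgfbr2*, *Inhba* and *Tgfbi* in monocyte/macrophage-like cells were past it in all 14 settings, with log2 ratios of 1.51 to 2.06, 1.11 to 1.68, -5.04 to -1.87 and -1.70 to -1.05. *Gdf15* was past it in 8 of the 14 (0.44 to 1.47) and *Gdf3* in 5 (0.57 to 1.28). In 4 of the 13 (another call of cells, 15% mitochondrial UMIs, doublets removed, 20 PCs) the cluster with *Il1a* among its leading genes had no name, and neither *Gdf15* nor *Gdf3* was past 2-fold. In FAP-like cells *Tgfb3* (2.99 to 3.29) and *Inhba* (-2.16 to -1.41) were past 2-fold in all 12 settings, and *Tgfb2* (1.00 to 1.40) and *Gdf3* (1.08 to 4.76) in 11. Relative to the median of all genes, *Tgfb1* was at -0.73 in monocyte/macrophage-like and -0.02 in FAP-like cells, *Tgfbr2* in FAP-like cells at -0.13 and *Gdf15* in monocyte/macrophage-like cells at 0.79. No member past 2-fold in monocyte/macrophage-like or FAP-like cells changed sign under any of these settings, and the other types were not run under them. None of these settings looked within a single cluster. Within the *Rsad2*-led cluster, with 66 cells on day 1, *Gdf15* was lower on day 3, with the limits given above. Levels under 50 UMIs, such as *Tgfb2* in monocyte/macrophage-like cells, are limited by depth.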

Other observations

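The endothelial-like cluster, mixed as described, held 187 CPM (156 to 222) of *Gdf15* on day 1, from 130 UMIs in 22 cells. On day 3 it held 114 CPM (89.6 to 143), from 74 UMIs in 9 cells, with 44 of the UMIs in 1 cell. A single cell of this cluster held 10 of the 12 *Tgfb2* UMIs of day 1. In neutrophil-like cells of day 3 the 17 *Gdf3* UMIs lay in 4 of 252 cells, and in those of day 1 there were 2 in 2078 cells. A single FAP-like cell of day 3 held 116 of the 524 *Inhba* UMIs of its type. A single monocyte/macrophage-like cell of day 1 held 166 of the 2529 *Gdf15* UMIs. The satellite/myoblast-like cells of day 3 had *Gdf15* UMIs in 41.0% (34.1 to 48.2) of cells, or 7.12% after thinning to 3000 UMIs.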
